A study of Mus musculus with 6 samples.

Results

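The 30 genes described here encode the enzymes of glycolysis, the carriers that bring glucose into a cell and take lactate out of it, the kinases that set the rate of glycolysis and of pyruvate oxidation, and the oxygen-sensing HIF pathway with several of its targets. They were chosen by symbol: a row of the deposited count table was taken when its Ensembl identifier carries a listed symbol in GENCODE M21, and of a pair of identifiers with the symbol Aldoa the one with more counts was kept. All 30 symbols were found among the 54838 identifiers of the table, and all 30 passed the filter on low counts, which left 15136 genes for testing. RNA came from mouse splenic B cells in culture, and 3 libraries of cells given Cpd10, which the labels call a Foxo1 inhibitor, were compared with 3 libraries of cells given its solvent DMSO. Foxo1 is a transcription factor, a protein that binds DNA and turns genes on or off. Per the labels, naive B cells were flow-sorted from the spleens of 10 male mice aged 3 months, over 2 independent experiments, and were pooled before they were put in culture. The mice had been immunised with sheep red blood cells (SRBC) 9 days earlier. In both groups the cells were kept for 5 days in embryonic stem cell medium (KO-DMEM) with mouse interleukin 4 (IL4) at 80 ng/ml and an antibody against CD40 at 5 µg/ml, a pair of signals that stands in for T cell help. The Cpd10 cultures had 1 µM of the inhibitor for 48 hours, day 3 to day 5, and the DMSO cultures had the solvent over the same time. Libraries were made from 1 µg of total RNA with poly A selection and a strand-marking kit. Because the animals were pooled and the labels do not say what the replicate letters A, B and C stand for, the p-values reflect nothing beyond the variation among these libraries, and that variation may be technical.

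Glycolysis splits glucose into pyruvate in the cytosol and yields ATP without oxygen, and lactate dehydrogenase then turns pyruvate into lactate, which leaves the cell. B cells activated through CD40 and IL4 take up more glucose and enlarge the pathway as they grow and divide. HIF-1, a dimer of HIF1A and ARNT, raises the transcription of most glycolytic genes when oxygen is scarce. With oxygen present, the EGLN prolyl hydroxylases mark HIF1A and the VHL protein sends it to the proteasome. HIF1A is thus controlled largely at the protein level, which RNA counts do not show.

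The libraries held 36873204 to 44859930 counts, so for nearly all of these genes the spread between libraries, not counting error, set the precision. Levels are given as CPM, counts scaled to a common TMM-normalised library size, and values of single libraries stand in the order A, B, C. Across both treatments, 2 sets of libraries stood apart. Set 2 held Cpd10 B, Cpd10 C and DMSO B, and set 1 held Cpd10 A, DMSO A and DMSO C. In this division 9 genes were nearly off in 1 set (no more than 3 counts a library) and on in the other (no less than 50), the most for any division of 3 against 3. The division into Cpd10 and DMSO had 1 such gene. The first principal component held 46.3% of the variance and separated the same sets, with set 2 at one end and set 1 at the other. Ribosomal protein genes took 10.8% to 12.04% of counts in set 2 and 6.60% to 7.11% in set 1, and immunoglobulin genes took 2.57% to 2.74% in set 2 and 3.45% to 6.80% in set 1. Of 7 plasma cell markers, 1 (Mzb1) was higher and 4 (Jchain, Prdm1, Sdc1 and Tnfrsf17) were lower in every library of set 2 than in every library of set 1. The same held for 18.8% (higher) and 17.1% (lower) of all tested genes. The 7 markers summed to 3455 to 3678 CPM in set 2 and 3182 to 5362 CPM in set 1. No label names the sets, and the part of these differences in the results below was not tested. Cd79a and Pax5, which define B cells, were present in every library, at 433 to 829 CPM.

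The glycolysis and hypoxia genes differed between the library sets by more than between Cpd10 and DMSO. Together the 30 genes summed to 8733, 12751 and 12265 CPM in Cpd10 A, B and C, against 6319, 11722 and 7431 CPM in DMSO A, B and C. DMSO B stood with Cpd10 B and C, and Cpd10 A stood nearer to DMSO A and C. Of the 30 genes, 28 were higher in set 2, beside 50.2% of tested genes. For 26 of them every library of set 2 was above every library of set 1, which held for 18.8% of all 15136 tested genes. For 1, Slc2a6, every library of set 2 was below every library of set 1, beside 17.1% of tested genes. The sets did not overlap, in either direction, for 27 of the 30 genes, beside 35.9% of tested genes. The median difference, set 2 minus set 1 on the log2 scale in a fit with terms for set and treatment, was 0.78 over the 30 genes and 0.0024 over all tested genes. The median difference between Cpd10 and DMSO over the 30 in the same fit was 0.16. Since the sets were picked from the same counts, these differences are descriptions with no test. In bulk RNA of this kind, fewer cells of a type and less RNA per cell cannot be told apart. The sets overlapped for Hif1a, Hk2 and Pfkfb4. Hif1a was the 1 gene of the 30 that separated Cpd10 from DMSO, lower in all 3 Cpd10 libraries. Of all tested genes, 7.32% were lower and 7.31% were higher in all 3 Cpd10 libraries than in all 3 of DMSO.

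**Figure D1:**
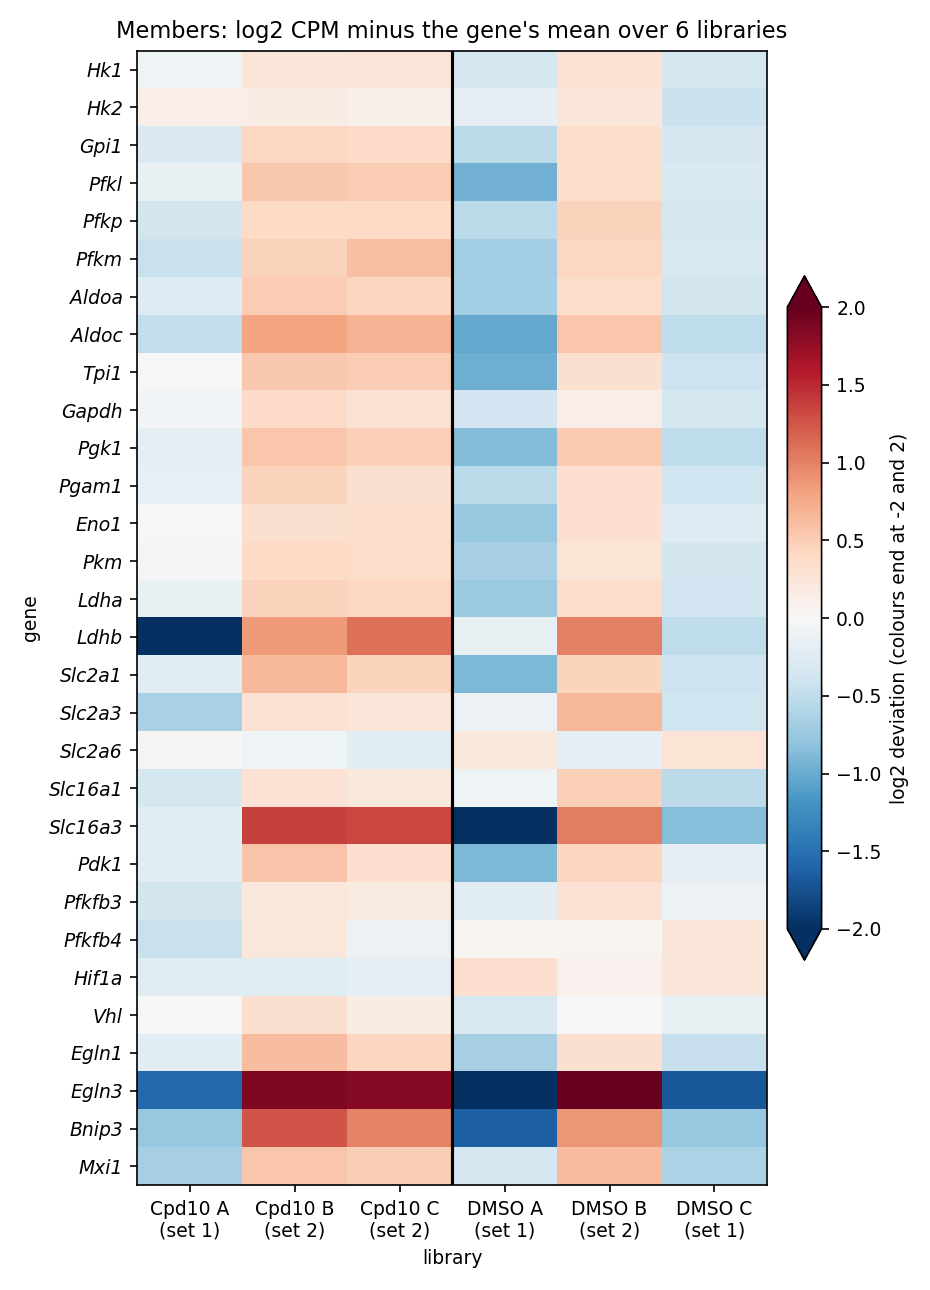
Heat map of the 30 genes (rows, grouped by role) in the 6 libraries (columns), with colour for the log2 deviation of each CPM value from the gene's mean over the libraries and the colour scale ending at -2 and 2. Most rows share 1 pattern, high in Cpd10 B, Cpd10 C and DMSO B and low in Cpd10 A, DMSO A and DMSO C, while the row of Hif1a is low in the 3 Cpd10 columns.

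In the comparison of Cpd10 with DMSO, which asks how inhibition of Foxo1 alters transcription in these cells, none of the 30 genes passed the threshold of an adjusted p under 0.05 in edgeR's quasi-likelihood test with the group as the only term. The p-values were adjusted by Benjamini-Hochberg over all tested genes. Over all tested genes, 56 passed (48 higher and 8 lower in Cpd10), which is 0.37%. At an unadjusted p under 0.05 there was 1 of the 30, Hif1a, beside 8.39% of all tested genes. DESeq2 called 0 of the 29 it gave a p-value for, which leaves out Egln3, beside 356 of 25082 genes. An unadjusted p under 0.05 in DESeq2 was reached by 3 of the 29, beside 1474 of the 25082. Limma-voom called 0 of the 30, with 1 at an unadjusted p under 0.05, beside 50 called and 1290 at that p of the 15136 genes. None of the 30 was higher in all 3 Cpd10 libraries than in all 3 DMSO libraries, an arrangement seen in 7.31% of tested genes. Of the 30, 1, Hif1a, was lower in all 3, beside 7.32% of tested genes. The estimated log2 fold change, Cpd10 minus DMSO, was above 0 for 26 of the 30, beside 49.8% of tested genes. Its median was 0.39 over the 30 and -0.0012 over all tested genes. That median turned on single libraries: it was 0.19 without DMSO A and 0.74 without DMSO B. Set 2 held 2 of the 3 Cpd10 libraries and 1 of the 3 DMSO libraries, so the sets enter this estimate. Within the sets the median over the 30 was 0.27 in set 1 (Cpd10 A against DMSO A and C, 22 of 30 above 0) and 0.034 in set 2 (Cpd10 B and C against DMSO B, 19 of 30 above 0). Over the 14581 tested genes above 0 in every library, the same medians were -0.010 in set 1 and -0.011 in set 2.

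With the library set as a second term in edgeR, 2 of the 30 genes were called, Hif1a and Slc2a3, both lower in Cpd10. Over all tested genes the share called was 3.96% in either direction (599 genes) and 1.64% lower. In that fit 22 of the 30 fold changes were above 0, beside 48% of tested genes. The median log2 fold change was 0.16 over the 30 and -0.011 over all tested genes. The fit is exploratory, because its second term was chosen from the counts it was fitted to.

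**Figure D2:**
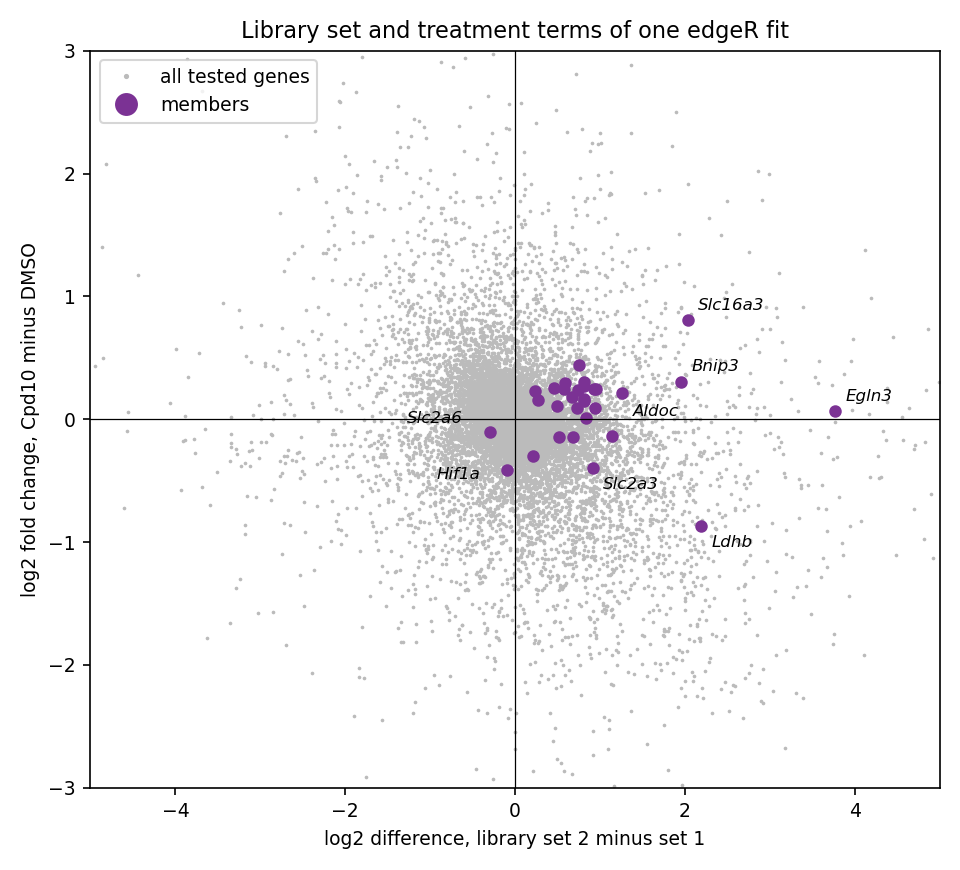
Each gene's log2 difference between the sets (set 2 minus set 1, horizontal) against its log2 difference between Cpd10 and DMSO (vertical), both from the edgeR fit with terms for set and treatment, for all tested genes (grey) and the 30 genes described (purple), with 113 tested genes outside the axes. The purple points spread to the right as far as Egln3 at 3.77 and lie close to 0 on the vertical axis, apart from a few such as Slc16a3 at 0.81, Ldhb at -0.87, Hif1a at -0.42 and Slc2a3 at -0.40.

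Hif1a encodes the oxygen-labile subunit of HIF-1 (GRCm38 chr12:73901375-73947530, plus strand). It had 79.0, 78.9 and 81.4 CPM in Cpd10, against 117, 98.9 and 110.3 CPM in DMSO, and averaged 79.8 ± 1.37 CPM in Cpd10 and 109 ± 9.24 CPM in DMSO (SD, n = 3 each). The groups did not overlap, the 3 Cpd10 libraries lay close together, and DMSO B was the lowest of the DMSO libraries. The log2 fold change was -0.45 (SE 0.09, adjusted p = 0.133) in edgeR with the group alone and -0.42 (SE 0.09, adjusted p = 0.0179) with the set term. Hif1a thus fell in the fit with the set term and was not called with the group alone. It was -0.53 within set 1 and -0.30 within set 2, with no test. The call with the set term was lost when any 1 Cpd10 library was left out, with edgeR adjusted p-values of 0.505 (Cpd10 A left out), 0.0732 (Cpd10 B) and 0.0819 (Cpd10 C). Its set difference was -0.09. Marker sums of 3 other lists were also lower in Cpd10, though most markers of each list were below 1 CPM in every library. Monocyte and macrophage markers summed to 18.2 to 21.9 CPM in Cpd10 and 28.1 to 37.2 CPM in DMSO (8 markers, C1qa and C1qb at 0 in every library). Nearly all of that sum was Adgre1 and Mpeg1, and 6 of the 8 markers were below 1 CPM in every library. T cell markers summed to 22.0 to 26.9 CPM in Cpd10 and 39.8 to 50.04 CPM in DMSO (8 markers, nearly all of it Lck). Fibroblast and endothelial markers summed to 4.93 to 6.14 CPM in Cpd10 and 11.3 to 20.5 CPM in DMSO (6 markers, Col3a1 at 0). Most of that sum was Pecam1, and 4 of the 6 markers were below 1 CPM in every library. Summed neutrophil, erythroid and NK cell markers reached at most 0.973, 0.532 and 13.3 CPM in any library, with S100a8, S100a9, Elane, Hba-a1 and Ncr1 at 0. With the set term edgeR called Lck, Adgre1 and Pecam1, 1 marker of each of those 3 lists, lower in Cpd10. Irf4 was the 1 marker of the plasma cell list called there, and it was higher (log2 fold change 0.49, SE 0.10, adjusted p = 0.0131). Of the rest of that list, Jchain, Prdm1, Sdc1 and Mzb1 had estimates below 0, and Xbp1 and Tnfrsf17 had estimates above 0. The median log2 fold change of the 7 plasma cell markers was -0.12 with the set term. The part of these markers in the Hif1a difference was not tested.

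**Figure D3:**
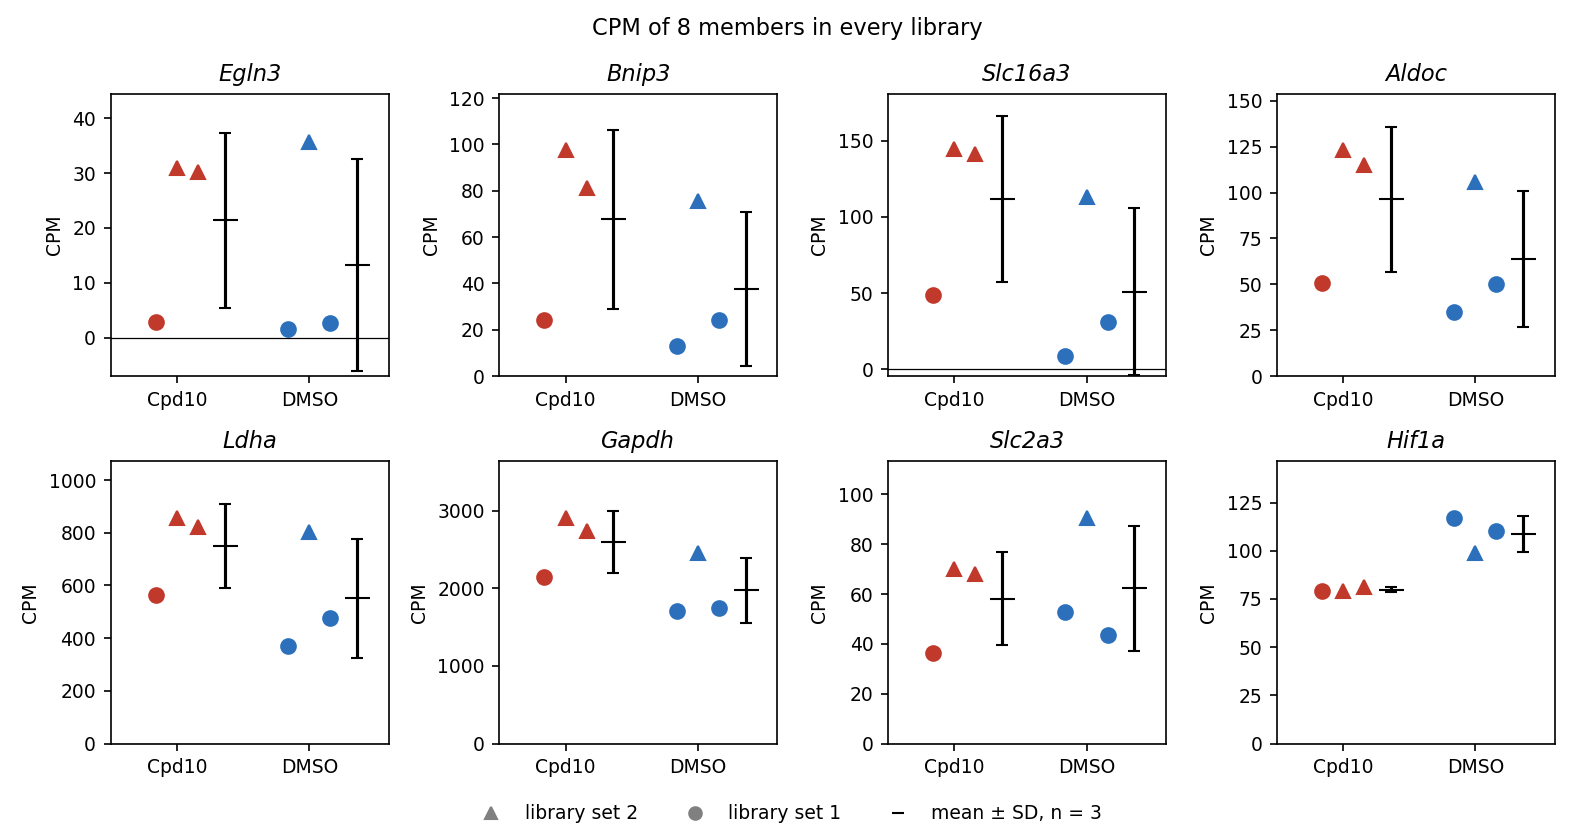
CPM of 8 of the genes in each library, Cpd10 left (red) and DMSO right (blue), with triangles for libraries of set 2, circles for set 1 and bars for the mean ± SD of the 3 libraries; an SD longer than the mean takes a bar below 0. Triangles lie above circles for Egln3, Bnip3, Slc16a3, Aldoc, Ldha, Gapdh and Slc2a3 whichever the treatment, and for Hif1a the red points, 78.9 to 81.4 CPM, lie below the blue points, 98.9 to 117 CPM.

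The rest of the oxygen-sensing group separated by set. Egln3, a prolyl hydroxylase that is itself a HIF target (GRCm38 chr12:54178981-54203860, minus strand), was an example. It had 2.86, 31.0 and 30.2 CPM in Cpd10, against 1.52, 35.6 and 2.63 CPM in DMSO. DMSO B was its highest library and stood with Cpd10 B and C, and the 3 libraries of set 1 were each below 3 CPM. Egln3 had the widest set difference of the 30, 3.77, and a treatment difference of 0.07 (SE 0.21, adjusted p = 0.926) in edgeR with the set term. Bnip3, a mitochondrial protein of mitophagy induced by HIF-1 (GRCm38 chr7:138890836-138909519, minus strand), was another. It had 24.1, 97.6 and 81.3 CPM in Cpd10, against 13.2, 75.4 and 24.2 CPM in DMSO. Here too the sets did not overlap while the treatment groups did, with Cpd10 A beside DMSO C. Its set difference was 1.95 and its log2 fold change was 0.85 (SE 0.81, adjusted p = 0.870) with the group alone.

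The 250 bases before the RefSeq start of 5 genes are shown (RefSeq annotation on GRCm38.p6), because they cover both ends of the contrast. They are 3 of the genes that differed most between the sets (Egln3, Bnip3 and Slc16a3), Pgk1, a glycolytic HIF target, and Hif1a, which was lower in every Cpd10 library. Each runs 5′ to 3′ on the gene's strand and ends at the base before the start. Capitals mark the core letters bound by HIF-1, ACGTG or GCGTG, on either strand (CACGT or CACGC when read on the strand shown).
Egln3, chr12:54203875-54204124, minus strand: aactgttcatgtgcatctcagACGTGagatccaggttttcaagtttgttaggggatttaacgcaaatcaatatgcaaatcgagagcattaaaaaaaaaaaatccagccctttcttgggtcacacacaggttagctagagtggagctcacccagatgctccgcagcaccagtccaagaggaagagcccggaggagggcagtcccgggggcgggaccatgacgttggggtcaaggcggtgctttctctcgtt
Bnip3, chr7:138909507-138909756, minus strand: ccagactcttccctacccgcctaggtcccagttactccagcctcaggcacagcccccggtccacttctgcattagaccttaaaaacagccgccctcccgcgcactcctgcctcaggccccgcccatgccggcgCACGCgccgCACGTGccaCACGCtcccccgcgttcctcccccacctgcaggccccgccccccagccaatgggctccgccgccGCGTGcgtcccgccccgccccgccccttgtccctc
Slc16a3, chr11:120948817-120949066, plus strand: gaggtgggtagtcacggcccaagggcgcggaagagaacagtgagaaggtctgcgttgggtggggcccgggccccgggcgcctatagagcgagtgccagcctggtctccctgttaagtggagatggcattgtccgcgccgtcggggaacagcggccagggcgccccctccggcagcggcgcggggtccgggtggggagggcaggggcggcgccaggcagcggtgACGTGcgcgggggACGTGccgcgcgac
Pgk1, chrX:106186850-106187099, plus strand: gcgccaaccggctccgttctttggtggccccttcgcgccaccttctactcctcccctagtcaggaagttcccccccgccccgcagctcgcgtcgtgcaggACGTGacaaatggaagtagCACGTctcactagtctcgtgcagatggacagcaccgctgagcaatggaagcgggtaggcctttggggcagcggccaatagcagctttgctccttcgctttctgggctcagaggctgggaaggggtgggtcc
Hif1a, chr12:73907617-73907866, plus strand: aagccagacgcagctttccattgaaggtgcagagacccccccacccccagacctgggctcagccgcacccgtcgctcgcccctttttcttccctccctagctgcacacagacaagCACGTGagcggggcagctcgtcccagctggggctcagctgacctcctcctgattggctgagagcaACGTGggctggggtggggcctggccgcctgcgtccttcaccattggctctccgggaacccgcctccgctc

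The window of Bnip3 holds 5 matches at 117, 108, 107, 99 and 35 bases before the start, that of Hif1a holds 3, those of Slc16a3 and Pgk1 hold 2 each and that of Egln3 holds 1. The palindrome CACGTG, an E-box also bound by MYC and its relatives, counts on both strands and so gives 2 of the matches in Bnip3 and 2 in Hif1a. A window was found for 29 of the 30 genes, all but Slc2a3. The HIF core occurred in 22 of them (75.9%, 1 window a gene), against 38.6% of all 32851 RefSeq windows, which hold more than 1 for some genes. CACGTG occurred in 5 of the 29 (17.2%) and in 6.02% of all windows. GTAAACA, a FOXO motif searched on both strands, occurred in 0 of the 29 and in 3.17% of all windows. At so low a share, 29 windows are too few to tell 0 from it. With 1 window a gene over 27025 genes, the shares were 38.6% for the HIF core, 6.05% for CACGTG and 3.09% for GTAAACA. The median GC content was 62.8% over the 29 windows and 52.4% over all windows. These are matches of letters, not measured binding. The windows of Aldoa, Gpi1, Hk1, Mxi1, Pkm, Tpi1 and Vhl lack the HIF core letters, which says nothing of HIF-1 elsewhere at these genes.

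Egln1, the main prolyl hydroxylase acting on HIF1A, had 75.2, 135 and 119 CPM in Cpd10, against 55.6, 109.7 and 63.8 CPM in DMSO. Its libraries of set 2 were all above those of set 1, and within each set Cpd10 was higher, by 0.33 within set 1 and 0.21 within set 2 on the log2 scale. It was not called in edgeR, with log2 fold changes of 0.52 (SE 0.31, adjusted p = 0.752) with the group alone and 0.27 (SE 0.09, adjusted p = 0.142) with the set term. Vhl, the ubiquitin ligase subunit that binds hydroxylated HIF1A, differed less between the sets, with 31.2 to 39.0 CPM in set 2 and 25.0 to 31.0 CPM in set 1. Its treatment groups overlapped only in that Cpd10 A lay just below DMSO B. Its log2 fold change was 0.31 (SE 0.14, adjusted p = 0.615) in edgeR with the group alone. Mxi1, a MYC antagonist and HIF target, had 40.6 to 44.3 CPM in set 2 and 18.2 to 22.9 CPM in set 1, a set difference of 1.14. Its fold change took opposite signs in the fits, 0.24 with the group alone and -0.14 with the set term.

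Among the carriers, the facilitated glucose transporter Slc2a1 (GLUT1) and the lactate exporter Slc16a3 (MCT4) had the pattern of the enzymes. Slc16a3 (GRCm38 chr11:120948480-120960868, plus strand) had 48.6, 145 and 142 CPM in Cpd10, against 8.78, 113 and 30.9 CPM in DMSO. The 3 libraries of set 2 were the highest, Cpd10 A stood above both DMSO libraries of its set, and DMSO A was the lowest of all. Its set difference was 2.03, and its log2 fold change of 1.13 (SE 0.97, adjusted p = 0.855) was the largest of the 30 in edgeR with the group alone, with an SE nearly as large. Slc2a1 had 59.7, 109.8 and 95.1 CPM in Cpd10, against 37.8, 96.0 and 52.8 CPM in DMSO. Its sets did not overlap, and it was not called (log2 fold change 0.50, SE 0.38, adjusted p = 0.826 in edgeR). Slc16a1 (MCT1), a carrier of lactate and pyruvate, ranged over 56.4 to 67.3 CPM in set 2 and 33.8 to 45.9 CPM in set 1, with a log2 fold change near 0 (0.07) that turned to -0.14 with the set term.

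Slc2a3 (GLUT3), a transporter of high glucose affinity, is at GRCm38 chr6:122727809-122801640, minus strand. It had 36.5, 70.1 and 68.0 CPM in Cpd10, against 52.9, 90.8 and 43.5 CPM in DMSO. Within each set Cpd10 was below DMSO, while over all 6 libraries the groups overlapped widely. The log2 difference was -0.40 within set 1 and -0.39 within set 2. In edgeR the log2 fold change was -0.10 (SE 0.34, adjusted p = 0.964) with the group alone and -0.40 (SE 0.10, adjusted p = 0.0395) with the set term, where Slc2a3 fell. The call was lost on leaving out Cpd10 A (edgeR adjusted p = 0.461), Cpd10 B (0.119), Cpd10 C (0.182) or DMSO B (0.237). The estimate with the group alone was above 0 without Cpd10 A (0.16) or without DMSO B (0.27). Slc2a6, a lysosomal hexose transporter, went the other way between sets, with 163, 152 and 137 CPM in Cpd10, against 185, 142 and 194 CPM in DMSO. It was the 1 gene of the 30 that was lower in every library of set 2, by a set difference of -0.29. Its fold change with treatment was -0.21 (SE 0.14, adjusted p = 0.778) in edgeR. Per kilobase of the principal coding transcript, Slc2a6 was the highest of the 3 glucose carriers, 70.4 ± 6.02 CPM per kb in Cpd10 and 81.3 ± 12.8 CPM per kb in DMSO. It was followed by Slc2a1 at 27.0 ± 7.89 CPM per kb in Cpd10 and 19.1 ± 9.27 CPM per kb in DMSO, and Slc2a3 at 14.7 ± 4.75 CPM per kb in Cpd10 and 15.8 ± 6.32 CPM per kb in DMSO (SD, n = 3 each).

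Each of the 16 enzyme genes of glycolysis and lactate formation had a set difference above 0, beside 50.2% of tested genes. The differences ran from 0.27 for Hk2 to 2.19 for Ldhb. None of the 16 was called in either edgeR fit, beside 0.37% of tested genes with the group alone and 3.96% with the set term. The log2 fold changes of the 16 with the group alone ran from 0.19 to 0.63 with adjusted p-values of 0.697 to 0.971. With the set term they ran from -0.87 to 0.44 with adjusted p-values of 0.114 to 0.968. The 16 summed to 8055, 11624 and 11232 CPM in Cpd10 A, B and C, against 5665, 10657 and 6714 CPM in DMSO A, B and C. Hexokinases trap glucose as glucose 6-phosphate. Hk2, the inducible form, had 133, 134 and 131 CPM in Cpd10, against 107, 143 and 90.3 CPM in DMSO. It varied least between the sets of the 16, which overlapped, and DMSO B was its highest library. Hk1, the widespread form, ranged over 145 to 151 CPM in set 2 and 96.3 to 116 CPM in set 1. Which of the pair was higher depended on the length used. Per kilobase of the principal transcript Hk1 was at 35.4 ± 4.64 CPM per kb in Cpd10 and 29.7 ± 8.17 CPM per kb in DMSO, and Hk2 at 24.1 ± 0.273 CPM per kb in Cpd10 and 20.6 ± 4.93 CPM per kb in DMSO (SD, n = 3 each). Per kilobase of all annotated exons Hk1 was at 15.97 in Cpd10 and 13.4 in DMSO and Hk2 at 22.2 in Cpd10 and 19.0 in DMSO.

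Gpi1, which isomerises glucose 6-phosphate to fructose 6-phosphate, ranged over 678 to 709.9 CPM in set 2 and 366 to 435 CPM in set 1. The phosphofructokinases, which commit sugar to glycolysis, were all higher in set 2. Pfkl, the liver form, had 207 to 233 CPM in set 2 and 82.6 to 145 CPM in set 1. Pfkp, the platelet form, had 285 to 298 CPM in set 2 and 148 to 169 CPM in set 1, and Pfkm, the muscle form, had 23.3 to 26.5 CPM in set 2 and 10.8 to 14.1 CPM in set 1. Pfkm was the lowest of them per kilobase of the principal transcript, 7.37 ± 2.52 CPM per kb in Cpd10 and 5.58 ± 2.25 CPM per kb in DMSO. The order of Pfkl and Pfkp depended on the length used. Aldolases cut fructose bisphosphate. Aldoc, the brain form and a HIF target, had 51.0, 123 and 115 CPM in Cpd10, against 35.2, 106 and 50.4 CPM in DMSO. Cpd10 A was next to DMSO C, and the 3 libraries of set 2 were well above both, a set difference of 1.26. Aldoa, the form of muscle and most cells, ranged over 1285 to 1406 CPM in set 2 and 621 to 826 CPM in set 1. It was far above Aldoc per kilobase of the principal transcript (786 against 34.6 CPM per kb in Cpd10, 591 against 22.9 CPM per kb in DMSO).

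**Figure D4:**
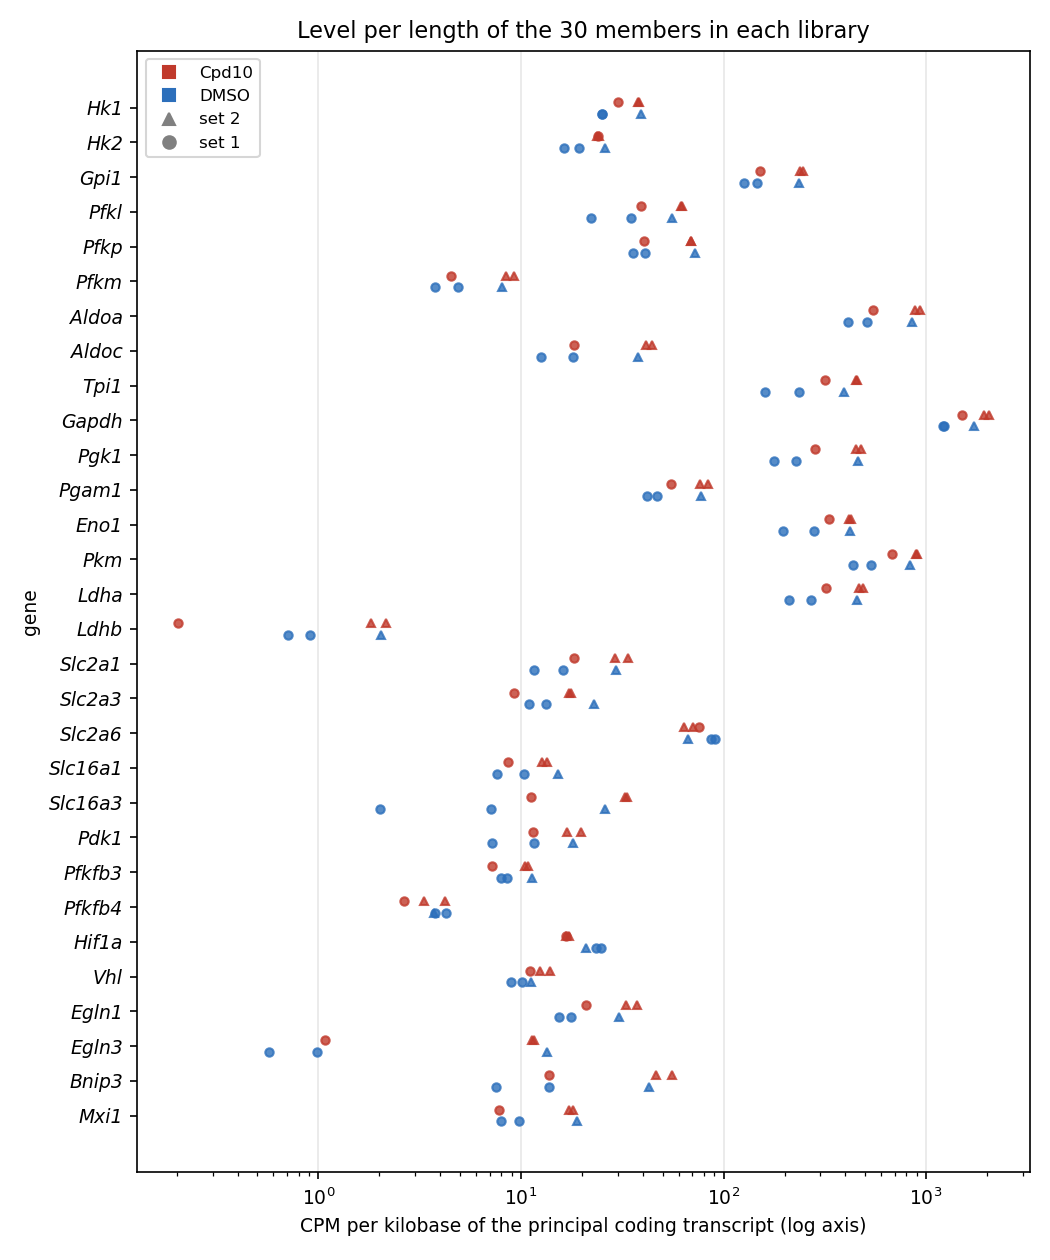
Level of each of the 30 genes in CPM per kilobase of its principal coding transcript on a log axis, Cpd10 (red) and DMSO (blue), with triangles for libraries of set 2 and circles for set 1. Gapdh is the highest, with means of 1829 CPM per kb in Cpd10 and 1389 CPM per kb in DMSO, and Ldhb the lowest, with means of 1.39 CPM per kb in Cpd10 and 1.22 CPM per kb in DMSO.

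Tpi1, which interconverts the triose phosphates, had 510.2, 734 and 723 CPM in Cpd10, against 258, 632 and 381 CPM in DMSO. DMSO A was again lowest, and Cpd10 A lay above the DMSO libraries of its set and below every library of set 2. Tpi1 had the largest fold change of the enzymes with the group alone, 0.63 (SE 0.32, adjusted p = 0.700) in edgeR, and 0.44 (SE 0.18, adjusted p = 0.314) with the set term. Gapdh, the dehydrogenase that makes the NADH of the pathway, is often used as a constant reference. It had 2143, 2909.8 and 2738 CPM in Cpd10, against 1712, 2457 and 1747 CPM in DMSO. It was higher in Cpd10 within each set, by 0.31 within set 1 and 0.20 within set 2 on the log2 scale. It was not called in edgeR with the group alone (log2 fold change 0.40, SE 0.20, adjusted p = 0.697) or with the set term (log2 fold change 0.25, SE 0.08, adjusted p = 0.114). Pkm, pyruvate kinase of muscle and dividing cells, had 1656, 2200.0 and 2167 CPM in Cpd10, against 1062, 2036 and 1298 CPM in DMSO. It too was higher in Cpd10 within each set, and its log2 fold change with the set term, 0.29 (SE 0.11, adjusted p = 0.180) in edgeR, was not called. Gene counts do not separate its splice forms. Pgk1, which makes the first ATP of the payoff steps, had 821 to 869 CPM in set 2 and 323 to 519 CPM in set 1. Pgam1, the mutase after it, had 136 to 148 CPM in set 2 and 74.8 to 97.5 CPM in set 1, and Eno1, enolase, had 841 to 865 CPM in set 2 and 397 to 676 CPM in set 1. Without a filter on low counts, the fit with the set term called Pfkl, Tpi1, Gapdh and Pkm higher in Cpd10 beside Hif1a and Slc2a3. Over all genes, 1191 of 25099 were called in that setting, 610 of them higher. Without DMSO A the set-term fit called Tpi1 and Slc16a3 higher, beside 907 of 15742 genes called, 466 of them higher.

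Ldha, the subunit that favours lactate formation, had 566, 858 and 824 CPM in Cpd10, against 372, 805 and 478 CPM in DMSO. Its sets did not overlap, and the treatment groups did (log2 fold change 0.44, SE 0.30, adjusted p = 0.791 in edgeR with the group alone). Ldhb, the subunit that favours the return to pyruvate, was low, with 12, 93 and 106 counts in Cpd10 A, B and C, against 53, 96 and 38 counts in DMSO A, B and C. Its set difference was 2.19. The sign of its fold change turned on the fit, 0.19 with the group alone and -0.87 with the set term (adjusted p = 0.971 and 0.465 in edgeR). Per kilobase of the principal transcript, Ldha was at 424 ± 90.4 CPM per kb in Cpd10 and 312 ± 128 CPM per kb in DMSO, and Ldhb at 1.39 ± 1.04 CPM per kb in Cpd10 and 1.22 ± 0.710 CPM per kb in DMSO (SD, n = 3 each).

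Of the 3 regulatory kinases, 2 were higher in every library of set 2 than in every library of set 1, beside 18.8% of tested genes. Pdk1, a HIF target that blocks pyruvate dehydrogenase by phosphorylation, had 87.9 to 103 CPM in set 2 and 37.2 to 60.4 CPM in set 1. Pfkfb3, which makes the activator of phosphofructokinase, had 48.7 to 52.7 CPM in set 2 and 33.4 to 39.5 CPM in set 1. Pfkfb4, another enzyme of that kind, had 9.21, 14.7 and 11.6 CPM in Cpd10, against 13.1, 13.0 and 14.9 CPM in DMSO. Its treatment groups and its sets both overlapped, and its log2 difference was -0.60 within set 1 and 0.01 within set 2. None of the 3 was called, beside 0.37% of tested genes with the group alone and 3.96% with the set term. The adjusted p-values were 0.861 to 0.981 in edgeR with the group alone and 0.514 to 0.811 with the set term.

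**Figure D5:**
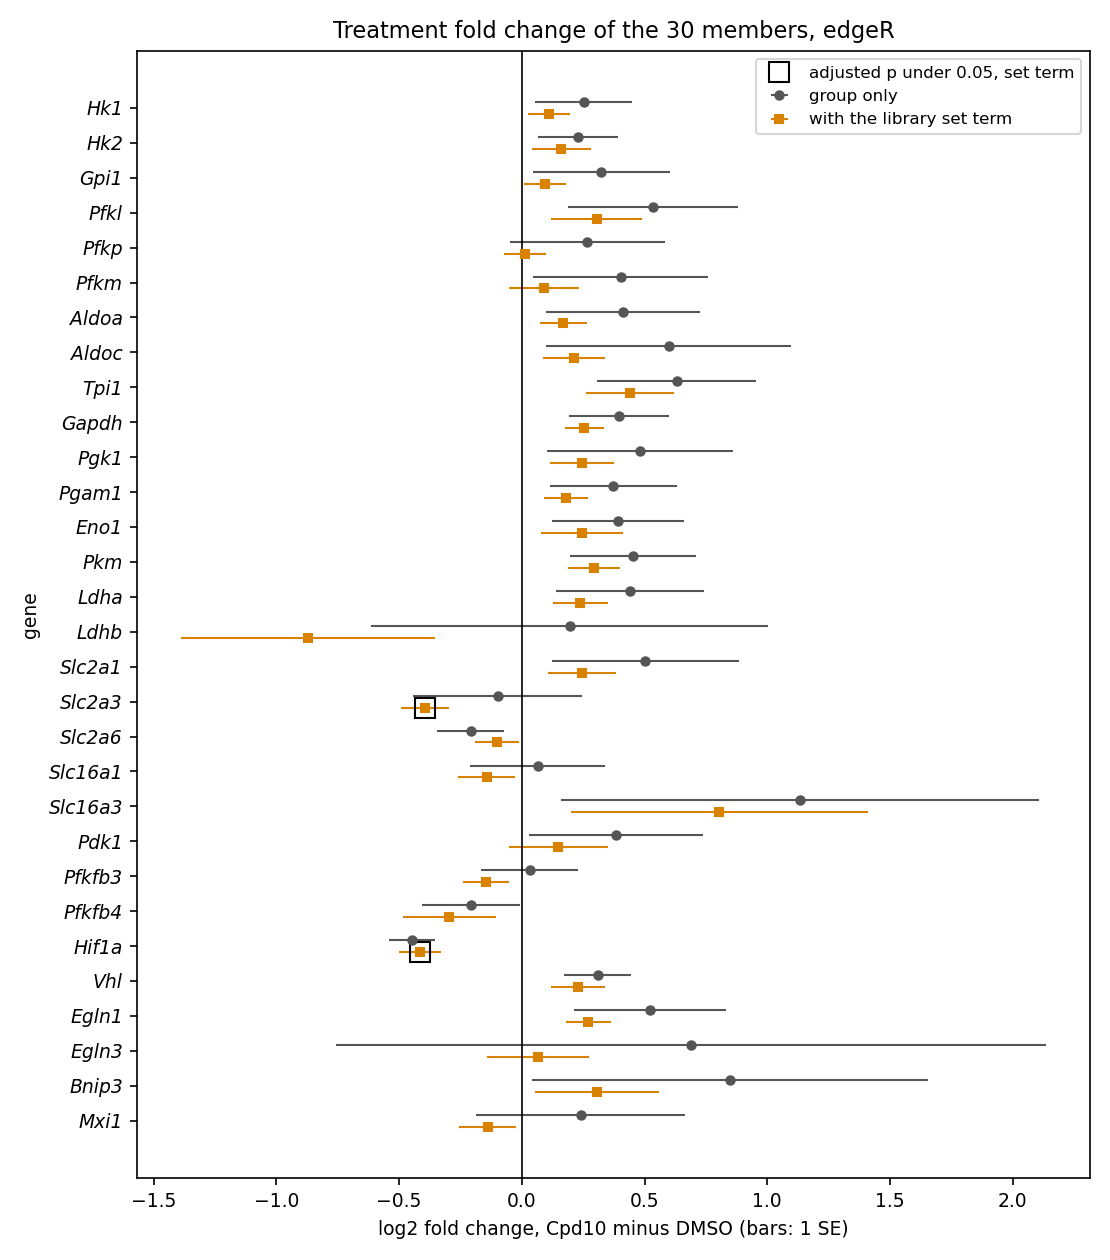
Log2 fold change of Cpd10 over DMSO for each of the 30 genes in edgeR, with bars of 1 SE, for the fit with the group alone and the fit with the library set as a second term. Most estimates move toward 0 and every bar shortens with the set term, and Hif1a and Slc2a3 are the genes called there, both below 0.

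Other genes of these pathways were read from lists that were chosen with earlier results of these data known. None of their genes was called in edgeR with the group alone. Of 29 other HIF targets 28 were tested, with a median log2 fold change of 0.18 with the group alone and 0.0096 with the set term. An unadjusted p under 0.05 in edgeR with the group alone was reached by 2 of them, beside 8.39% of all tested genes. Bhlhe40, a circadian and hypoxia-responsive repressor, had 54.1, 48.0 and 49.4 CPM in Cpd10, against 152, 72.7 and 70.2 CPM in DMSO. Its log2 fold change was -0.96 (SE 0.30, adjusted p = 0.400) in edgeR. Adm, the secreted peptide adrenomedullin, had a log2 fold change of 0.32 (SE 0.13, adjusted p = 0.572) in edgeR. Of the 28, 24 were higher in set 2, 20 of them in every library, beside 50.2% and 18.8% of all tested genes. None was lower in every library, beside 17.1% of tested genes, and the median set difference was 0.66. The following examples were chosen after their values were seen. Ak4, a mitochondrial adenylate kinase, had 5.596, 32.6 and 31.6 CPM in Cpd10, against 0.672, 30.7 and 3.80 CPM in DMSO. P4ha1, a collagen prolyl hydroxylase, had 58.9, 162 and 163 CPM in Cpd10, against 40.5, 171 and 68.9 CPM in DMSO. DMSO B again stood with Cpd10 B and C in both genes, and the set differences were 3.14 for Ak4 and 1.55 for P4ha1. Stc2, a secreted glycoprotein that the naming rule picked, had 27.7 to 34.9 CPM in set 2 and 4.69 to 8.42 CPM in set 1.

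The remaining HIF machinery had set differences on both sides of 0. Of 15 other genes of the HIF machinery 14 were tested. In set 2, 7 of them were higher, beside 50.2% of tested genes. Of the 14, 1 was higher in every library of set 2 and 4 were lower in every library, beside 18.8% and 17.1% of all tested genes. The 14 had a median set difference of -0.032 and a median log2 fold change with treatment of -0.0046. Hif1an, which hydroxylates HIF1A to block its coactivators, had a log2 fold change of 0.09 (SE 0.09, adjusted p = 0.886) in edgeR, and the coactivator Crebbp had a log2 fold change of -0.23 (SE 0.14, adjusted p = 0.759). Of 21 other enzymes of glycolysis, most of them forms typical of other tissues, 12 were tested. Of these 7 were higher in set 2, 3 of them in every library, beside 50.2% and 18.8% of all tested genes. Their median set difference was 0.12. The muscle enolase Eno3 (log2 fold change 0.44, SE 0.15, adjusted p = 0.449) and Bpgm, a mutase that makes bisphosphoglycerate (log2 fold change -0.46, SE 0.20, adjusted p = 0.585), had the smallest p-values there in edgeR. All 8 genes of the pentose phosphate pathway, which draws on glucose 6-phosphate for NADPH and ribose, were tested. They had a median set difference of 0.083 and a median log2 fold change with treatment of 0.072. Of 13 genes that bring pyruvate into the mitochondria and oxidise it 12 were tested, with a median set difference of 0.023. Pdk3, a pyruvate dehydrogenase kinase, had a log2 fold change of 0.25 (SE 0.10, adjusted p = 0.568) in edgeR. Of 11 other hexose and monocarboxylate carriers and their chaperones 6 were tested, 5 of them higher in set 2, beside 50.2% of tested genes. Emb (embigin), which escorts monocarboxylate carriers to the membrane, had 8.46, 25.4 and 20.3 CPM in Cpd10, against 22.2, 38.3 and 20.3 CPM in DMSO. Cpd10 was lower within each set, and Emb was the 1 gene of these lists that edgeR called with the set term, where it fell (log2 fold change -1.03, SE 0.16, adjusted p = 0.00267). With the group alone it had a log2 fold change of -0.58 (SE 0.42, adjusted p = 0.819).

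Some counts could include reads of other genes, because the sources used here do not give how reads with several positions were handled or whether strand was used in counting. Eno1b, a near-identical copy of Eno1, had 46.3, 71.6 and 67.1 CPM in Cpd10, against 31.6, 64.5 and 42.7 CPM in DMSO. A division of reads between them cannot be told apart from expression of both. The identifier of Aldoa that was not kept had 159 counts over all libraries, and no other listed copy or pseudogene had more than 85. Opposite-strand exons of Pitrm1 cover 5.58% of the exon bases of Pfkp, those of Iffo1 1.65% of Gapdh and those of Senp1 0.539% of Pfkm. A same-strand transcript, Gm49759, covers 15.3% of Pkm with 9602 counts against 418120 for Pkm.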

How the data were processed

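The authors deposited raw counts of reads for each gene as 1 table of 6 libraries. Per the submitters' processing notes, STAR 2.7.10a, featureCounts 2.0.6 and DESeq2 were used with the mouse build GRCm38 (mm10). How multi-mapping reads and strand were handled is not stated in the sources, and 0 columns of the table were left out. Symbols and coordinates came from GENCODE M21, which held 54809 of the 54838 identifiers. In R 4.3.3, edgeR 4.0.16 was run on the deposited counts with TMM normalisation, filterByExpr and a robust quasi-likelihood fit, with the group as the only term or with the library set added, and Benjamini-Hochberg adjustment over all 15136 tested genes (threshold 0.05). Each SE was obtained from the log2 fold change and its F statistic. Within-set values are log2 ratios of mean CPM. The alternatives were DESeq2 1.42.0 size factors, library totals, no filter, the DESeq2 test, limma-voom (limma 3.58.1), a block for the replicate letter, and each library left out. The fits were tested on simulated data with known changes. The 30 genes, the lists and the library sets were chosen with earlier results of these data known. Named genes are all 30, from each list up to 3 with the smallest p with the group alone and up to 2 more with the set term, and Foxo1, Myc and Txnip. Promoter windows came from RefSeq.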

Additional observations from a re-analysis of the deposited data

How the results depend on the processing

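The count of genes called in edgeR with the group alone, 56, was 194 without a filter on low counts, 356 in DESeq2 and 599 with the library set term, and ran from 0 to 100 when 1 library was left out: 77, 1 and 0 on leaving out Cpd10 A, B or C (with 843 at an unadjusted p under 0.05 in the last), and 5, 100 and 1 on leaving out DMSO A, B or C. None of the 30 genes was called with the group alone under any of these settings, against 2 with the set term. Without DMSO B, 24 of the 30 had an unadjusted p under 0.05 in edgeR with the group alone, beside 1957 of 15812 tested genes. On leaving out any other single library, 1 to 4 of the 30 did. The set-term count of 599 genes was 1191 without a filter and 130 to 907 with 1 library left out, and its 2 calls among the 30 became 6 without a filter and 0 to 4 with 1 library left out (0 on leaving out any single Cpd10 library, 4 without DMSO A, 1 without DMSO B). The median log2 fold change of the 30 ran from 0.19 to 0.74 over the libraries left out, and was above 0 in each setting. Of 389 recomputed fits of single genes with an adjusted p, 368 kept their direction and side of the threshold, 2 passed the threshold with the set term, 12 changed sign on leaving out a library and 7 under other settings. Of 60 within-set values, which have no test, 15 had the opposite sign to the fit with the group alone, and 5 moved by more than the spread between libraries. The 7 sign changes under other settings are Ldhb, -0.30 with limma-voom, -0.16 with the replicate block and -0.87 with the set term, Slc16a1, -0.14, and Mxi1, -0.14, both with the set term, and Pfkfb3, -0.0021 with library totals and -0.15 with the set term. Leaving out 1 library changed the sign of 4 genes, over ranges of -0.27 to 0.78 for Ldhb, -0.30 to 0.27 for Slc2a3, -0.14 to 0.36 for Slc16a1 and -0.069 to 0.21 for Pfkfb3. The cause of these shifts was not tested. The replicate letters gave correlations of deviations of 0.31 for A, 0.43 for B and -0.31 for C. Libraries of different letters in the same set reached 0.46 (Cpd10 A with DMSO C) and 0.41 (Cpd10 C with DMSO B). Because the sets cross the letters, these values cannot tell whether the letters pair the libraries. With the replicate block in edgeR, 49 genes and 0 of the 30 were called. There an unadjusted p under 0.05 was reached by 17 of the 30, beside 1420 of all 15136 tested genes. The median log2 fold change of the 30 was then 0.41. Counting error limits only Ldhb and the set 1 values of Egln3.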

Other observations

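Regulators that act upstream of glycolysis and HIF were examined beside the 30 genes. Of 15 such genes 14 were tested and none was called in edgeR in either fit. With the group alone 2 had an unadjusted p under 0.05 in edgeR, beside 8.39% of all tested genes. Foxo1, the labelled target of Cpd10, had 129.8, 115 and 111 CPM in Cpd10, against 137, 122 and 155 CPM in DMSO. Its log2 fold change was -0.22 (SE 0.12, adjusted p = 0.711) in edgeR, and an inhibitor of the protein need not alter its RNA. Myc, which drives growth and glycolytic genes in activated lymphocytes, had 157, 175 and 163 CPM in Cpd10, against 372, 178 and 249.5 CPM in DMSO. Its log2 fold change was -0.69 (SE 0.25, adjusted p = 0.501) in edgeR with the group alone and -0.53 (SE 0.31, adjusted p = 0.540) with the set term. Its set difference was -0.35, and its sets overlapped, with 163 to 178 CPM in set 2 and 157 to 372 CPM in set 1. The part of Myc in the set differences of the 30 genes was not tested. Foxo4 had a log2 fold change of 0.37 (SE 0.16, adjusted p = 0.584) with the group alone in edgeR. Txnip, a glucose-responsive brake on glucose uptake, had 184, 292 and 312 CPM in Cpd10, against 182, 308 and 266 CPM in DMSO. Its log2 fold change was 0.06 (SE 0.25, adjusted p = 0.971) in edgeR.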
